A study of Mus musculus with 16 samples.

Results

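The cytosolic ribosomal protein genes encode the protein part of the ribosome, and 80 of the 22367 protein-coding genes of the mouse annotation belonged to them. Members were chosen by symbol alone, as Rpl or Rps followed by a number and at most 1 letter, with Rplp0, Rplp1, Rplp2 and Rpsa added and the kinase genes of the Rps6k family left out. Of the 80, 32 encode proteins of the small subunit (Rps genes and Rpsa) and 48 proteins of the large subunit, including the stalk proteins Rplp0, Rplp1 and Rplp2. The rule also took in 4 paralogs: Rpl3l, a copy of Rpl3 used in striated muscle, Rpl10l, a testis retrocopy of Rpl10, Rpl39l, a copy of Rpl39, and Rps27l, a copy of Rps27 that p53 can induce. The members lay on 19 chromosomes, 4 of them on the X.

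Chromatin immunoprecipitation followed by sequencing (ChIP-seq) had been carried out in MC3T3-E1, a mouse pre-osteoblast line that lays down mineralised matrix when stimulated. Undifferentiated cells were compared with cells grown for 15 days in medium with 50 µg/mL ascorbic acid and 10 mM glycerol-2-phosphate, and both were given ethanol vehicle for 3 h before the assay, at passages 5 to 12. In each of the 2 states there was 1 merged peak list for RUNX2, the runt-domain factor of the osteoblast lineage, 1 for the leucine zipper factor C/EBPβ and 1 for each of H3K4me3, H3K9Ac, H4K5Ac, H3K4me1 and H3K36me3, 14 lists in all. No list had a replicate of its own, so no difference between the states was tested and no p-value is given. The 2 input samples were not analysed here. The label that gives the treatment of the differentiated H3K36me3 sample is garbled, and its state was read from the title. The protocol writes H3K5Ac where the antibody label has H4K5Ac, and the latter name is used. The model is 1 cell line, and before chromatin was made the mineralised matrix was removed from the differentiated cultures.

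Most of these proteins are present as a single copy in each ribosome, so the cell makes them in matched amounts and in large quantity, and their genes are among the most strongly transcribed of a growing cell. They are short, their transcripts usually begin with a run of pyrimidines through which translation is tied to growth signals, and many hold small nucleolar RNAs in their introns. H3K4me3 and the acetylations H3K9Ac and H4K5Ac mark the start of active genes, and H3K4me1 marks enhancers and the flanks of promoters. H3K36me3 is laid down over gene bodies as RNA polymerase moves through them. RUNX2 binds a short core sequence and switches on genes of bone matrix, and C/EBPβ works with it in the osteoblast. A gene was counted as having a mark or factor when a deposited region overlapped the 1000 bp to either side of any of its annotated transcription start sites (TSSs) by at least 1 bp.

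The promoter sequences that RUNX2 peaks covered at 5 members are shown first, because they differ in whether they hold the RUNX core and in whether a peak was present in 1 state or both. Positions are in mm9 (NCBIM37), sequences run 5′ to 3′ on the strand of the gene, and each is the part of the peak that lies outside annotated exons. Capitals mark TGTGGT or TGCGGT on either strand. Rpl21, a large subunit gene, had nearly the same peak in both states, and the sequence of chr5:147644327-147644465 on the plus strand holds 2 overlapping copies of the core. Rps12, a small subunit gene, also had a peak in both, and the part given is from the undifferentiated peak, chr10:23507039-23507239 on the minus strand, with 1 copy. At Rpl27a the differentiated peak, chr7:116662373-116662573 on the plus strand, took in 1 copy. The undifferentiated peak, whose centre lay 107 bp nearer the gene, had none. Rps3a had a peak in undifferentiated cells only, chr3:85946625-85946823 on the minus strand, with 1 copy. Rplp0, which encodes the base protein of the stalk, had a peak in both states, and chr5:116009322-116009475 on the plus strand holds no copy.
Rpl21: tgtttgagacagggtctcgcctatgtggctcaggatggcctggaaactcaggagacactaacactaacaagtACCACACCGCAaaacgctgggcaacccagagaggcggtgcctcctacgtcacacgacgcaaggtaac
Rps12: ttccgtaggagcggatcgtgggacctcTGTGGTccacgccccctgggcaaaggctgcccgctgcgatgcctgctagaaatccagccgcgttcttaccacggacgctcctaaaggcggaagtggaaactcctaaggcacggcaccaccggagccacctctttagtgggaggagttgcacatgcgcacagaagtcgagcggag
Rpl27a: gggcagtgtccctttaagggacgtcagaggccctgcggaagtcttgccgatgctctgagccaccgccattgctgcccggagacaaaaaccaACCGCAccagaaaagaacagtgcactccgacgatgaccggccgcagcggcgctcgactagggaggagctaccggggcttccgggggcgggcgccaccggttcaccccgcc
Rps3a: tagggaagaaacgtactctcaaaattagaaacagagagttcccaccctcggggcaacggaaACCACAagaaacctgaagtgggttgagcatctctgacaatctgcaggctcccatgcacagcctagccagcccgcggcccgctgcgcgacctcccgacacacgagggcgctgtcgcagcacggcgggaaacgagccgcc
Rplp0: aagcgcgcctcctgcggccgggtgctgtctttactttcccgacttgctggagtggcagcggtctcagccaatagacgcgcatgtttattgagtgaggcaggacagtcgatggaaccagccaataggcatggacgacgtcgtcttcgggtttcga

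Nearly all members carried the full set of promoter marks in both states. H3K4me3 was found at 75 of 80 members (93.8%, exact Clopper-Pearson 95% interval 86.0 to 97.9) in undifferentiated cells, against 34.9% of all protein-coding genes. In differentiated cells it was found at 77 (96.3%, 89.4 to 99.2), against 40% of all genes. H3K9Ac was found at 77 members in each state, against 49.1% and 52.4% of all genes. H4K5Ac was found at 78 and 77 members, against 55.4% and 54.2% of all genes, and H3K4me1 at 77 and 78, against 57.1% and 58.8%. Related lists were also widely marked. Translation factor genes had each of the 4 marks at 37 of 37 in both states. Mitochondrial ribosomal protein genes had H3K9Ac, H4K5Ac and H3K4me1 at 76 of 76 in both states, and H3K4me3 at 58 and 75. Ribosome biogenesis genes had H3K9Ac and H4K5Ac at 39 of 39 in both states, and H3K4me3 at 35 and 36. Oxidative phosphorylation subunit genes had H3K9Ac at 78 of 86 in each state and H3K4me3 at 71 and 77. All 4 marks in both states were present at 74 members, against 32.9% of all genes. These intervals cover counting error only, and genes are not replicates.

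Of the members outside this pattern, Rpl3l, Rpl10l and Rpl39l were paralogs, and Rpl35, Rpl36a and Rpl39 were not. Rpl3l and Rpl10l had none of the 4 promoter marks in either state. Rpl39l had H3K4me1 in both states and H4K5Ac in undifferentiated cells only, in a region of 5141 bp, and neither H3K4me3 nor H3K9Ac. Of all stretches of 32 bases at the promoter, 96.8% of those of Rpl3l and 100% of those of Rpl39l occur once in the genome, and 71.9% of those of Rpl10l do. The part of this in the missing marks was not tested. Rps27l, the other paralog, carried all 4 marks in both states, and its H3K4me3 region spanned 3193 bp in undifferentiated and 2834 bp in differentiated cells.

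H3K4me3 was in the differentiated list only at 2 members, against 6.54% of all genes, and at no member in the undifferentiated list only. Since 75 of 80 members already had it in undifferentiated cells, few could be added. Of the members without it there, 2 had it in differentiated cells and 3 did not, against 1463 and 13102 of all genes. Rpl35, whose protein sits near the exit of the nascent peptide tunnel, had no H3K4me3 region in undifferentiated cells and one of 7244 bp in differentiated cells. Its H3K9Ac region was of like width in both, at 10410 and 10658 bp. Rpl36a, an X-linked large subunit gene, had no H3K4me3 region and then one of 1762 bp, with H3K9Ac over 3099 and 3393 bp. Rpl39, which encodes a very small protein of the exit tunnel, had an H3K4me1 region in differentiated cells only, of 1017 bp.

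The H3K9Ac and H3K4me3 regions at the members ranked high within their own lists. The score is the authors' own value for each region and was used only as a rank within its list, given as a percentile where 100 is the top. For H3K9Ac the median rank of the members was 92.0 in undifferentiated and 95.2 in differentiated cells. The 7401 other genes with H3K4me3 in both states, the most like set of active promoters, had 76.1 and 85.2. In the top 10% of the H3K9Ac list were 40 of 77 members in undifferentiated cells, and 1669 of 7397 of these other genes. For H3K4me3 the members' medians were 75.5 and 86.2, and those of the other genes 54.2 and 61.4. Genes of the mitochondrial ribosome, a separate set of proteins that serves the organelle, had 58.1 and 44.2. Translation factor genes ranked about as high as the members, with 69.9 and 86.3 for H3K4me3 and 91.1 and 93.7 for H3K9Ac. For H4K5Ac the members had 87.4 and 83.7, and the other genes with H3K4me3 78.4 and 72.9. The gap was smaller for H3K4me1, with 73.0 and 82.7 against 71.6 and 77.2. For H3K36me3 the members ranked lower than these other genes, with 78.5 and 73.1 against 83.2 and 82.0. The lowest H3K4me3 rank among members was that of Rpl7 in undifferentiated cells, 0.484, although its region was 3463 bp wide, and in differentiated cells Rpl7 ranked at 90.3.

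Widths moved with the state in different directions for the 2 acetylations. H3K9Ac regions at the members had a median width of 4628 bp in undifferentiated and 6146 bp in differentiated cells, and 71 of 77 were wider in the latter. Rpl19, whose protein forms a bridge between the subunits, had H3K9Ac over 4604 bp and 18255 bp. Rpl36 had 2326 and 8335 bp, and Rps24 had 4530 and 11236 bp. H4K5Ac regions had a median of 8527 bp and then 6577 bp, and 60 of 77 were narrower in differentiated cells. At Rps12 the H4K5Ac region spanned 16716 and 8777 bp, and at Rps16 12628 and 4764 bp. The other active genes went the same way, with 6375 of 7397 H3K9Ac regions wider and 6115 of 7364 H4K5Ac regions narrower. The median ratio of differentiated to undifferentiated width was 1.19 for H3K9Ac at members and 1.14 at the other genes, and 0.861 and 0.816 for H4K5Ac. The direction was therefore not particular to ribosomal protein genes. Over all lists H3K9Ac covered 52.6 and 86.5 Mb and H4K5Ac 339.8 and 264.7 Mb, and the part of list length and read depth in the widths was not tested. H3K4me3 and H3K4me1 differed less, with medians of 3193 and 2919 bp and of 8795 and 8602 bp at the members.

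H3K9Ac reached further into and past the members in differentiated cells. At 4000 bp past the most 5-prime TSS, 20 of 80 members (25%) were inside an H3K9Ac region before differentiation and 40 (50%) after it, against 11.8% and 18.6% of the other genes with H3K4me3. Of the 408 of these genes whose lengths fall in the members' interquartile range, 20.8% and 28.9% were. On the upstream side the members' counts were 49 and 63 at 1000 bp (61.3% and 78.8%) and 10 and 12 at 4000 bp (12.5% and 15%) before the TSS. The other genes with H3K4me3 had 66.8% and 79.6% at 1000 bp and 6.62% and 10.9% at 4000 bp. Those of like length had 77.2% and 88.2%, and 12.5% and 19.4%. Upstream at 1000 bp the members were thus not above these sets. H3K4me3 was off centre as well: 1000 bp downstream 73 members (91.3%) were inside a region in undifferentiated cells, and 1000 bp upstream 21 (26.3%) were, against 84.9% and 46.3% of the other genes. Another gene started within 1 kb at 14 of 80 members (17.5%) and at 27.2% of these other genes, and its part in the upstream cover was not tested.

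**Figure D1:**
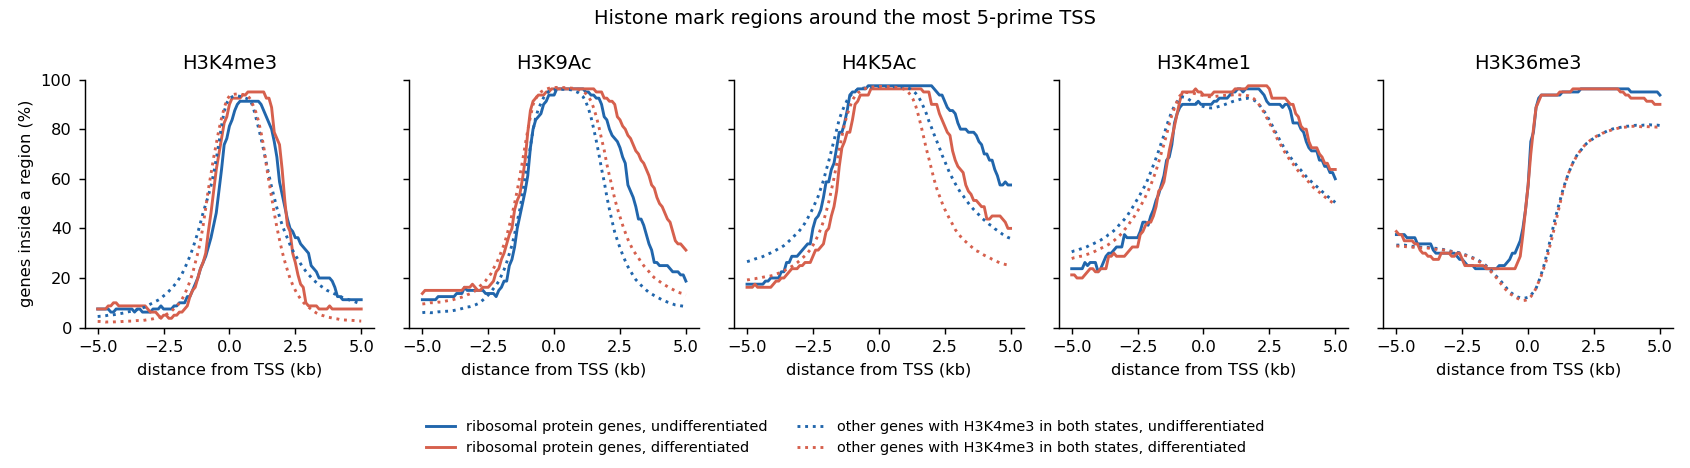
Share of genes (vertical axis, percent) whose position at a given distance from the most 5-prime TSS (horizontal axis, kb, negative upstream) lies inside a deposited region, for 5 marks. Solid lines are the 80 ribosomal protein genes and dotted lines the 7401 other genes with H3K4me3 in both states, blue undifferentiated and red differentiated. The solid H3K36me3 lines climb at the TSS itself, where 46 of 80 members are covered, and the H3K9Ac lines reach 25% and 50% at 4 kb.

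H3K36me3 covered the bodies of the members almost completely in both states. The median share of the annotated body under H3K36me3 regions was 100% in each state, against 1.25% and 0.431% over all genes and 91.1% and 91.3% over the other genes with H3K4me3. At least 90% was covered at 71 of 80 members (88.8%) in undifferentiated and at 71 in differentiated cells, against 23% and 22.9% of all genes. The whole body was covered at 45 and 46 members, against 5.91% and 5.67%. Members are short, with a median of 3306 bp, and a short body is more easily filled by 1 region. Among the 408 other genes with H3K4me3 and like length, a set chosen after the values were seen, 90% cover was reached by 39.7% and 42.2%. Rps6, the target of the S6 kinases, Rps3, Rpsa, Rpl10, Rpl10a, Rpl12 and Rpl14 were among those at 100% in both states. Rpl5 was covered to 99.5% and 100.0%, and Rps19, mutated in Diamond-Blackfan anaemia, to 95.7% and 94.6%.

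At many members the cover took in the start of the gene. The most 5-prime TSS itself lay in an H3K36me3 region at 46 of 80 members (57.5%) in each state, against 7.93% and 7.4% of all genes, 12.2% and 11.5% of the other genes with H3K4me3, and 29.4% and 28.2% of those of like length. The region began more than 1 kb upstream of that TSS at 20 and 19 members. At 1000 bp upstream 25% and 23.8% of members were covered. The shares were 18.3% and 17.3% for the other genes with H3K4me3, and 30.1% and 27.9% for those of like length. At 1000 bp downstream 75 members (93.8%) were covered in each state, and 76.5% and 73.8% of the genes of like length. The regions ran on past the annotated end by a median of 5955 bp in undifferentiated and 4788 bp in differentiated cells. At 49 and 48 of the 77 members with a region, that region also reached over another gene. The cover of a member and of its neighbour could not be told apart there. Neither the reach past the end nor this overlap is given for other genes here. The widest undifferentiated region at a member, 170787 bp, lay over Rps3a.

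Members without H3K36me3 were the same 3 paralogs that lacked H3K4me3, namely Rpl3l, Rpl10l and Rpl39l, at 0% in both states. Rps27l was covered to 97.3% and 95.4%. The next lowest in undifferentiated cells was Rpl11, which with Rpl5 can bind and hold the p53 ligase MDM2, at 45.5%. In differentiated cells Rpl11 reached 67.0%, the only member with a difference of 20 points or more in that direction, against 2.28% of all genes. Its annotated body is 25164 bp long, against the median of 3306 bp. No member was lower by 20 points or more, against 2.24% of all genes. Rps16 followed with 76.8% and 94.9% and Rps29 with 78.2% and 93.2%, then Rpl19 with 92.6% and 100% and Rpl28 with 94.0% and 100%. The largest difference downwards was at Rpl13a, which can also act in a complex that silences inflammatory transcripts, with 81.9% and 71.1%. Rplp2 had 99.4% and 92.0%, Rpl39 90.2% and 82.9%, Rpl7 100% and 93.2%, and Rpl30 92.9% and 86.3%. In all 40 members had the same cover in both states, 18 a higher and 22 a lower one in differentiated cells. Those with the same cover were all at 100% or at 0% in both states, the limits of this measure. A difference of less than 20 points was seen at 79 of 80 members and at 21354 of all 22367 genes.

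**Figure D2:**
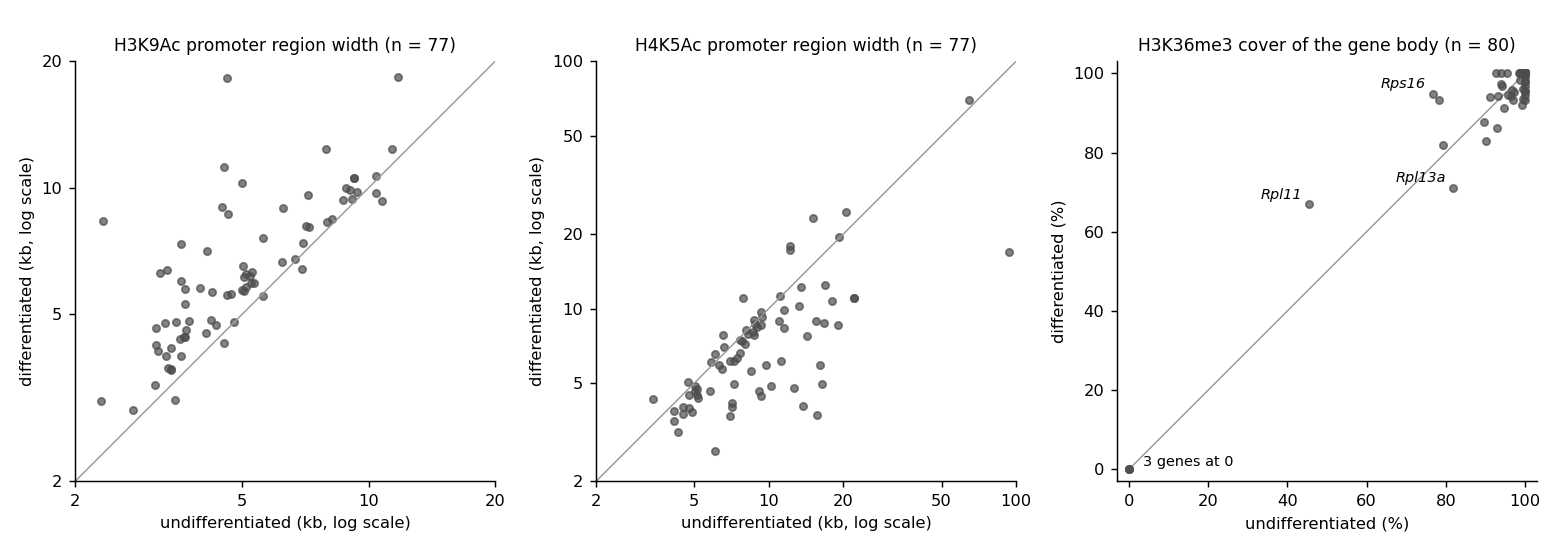
Each point is a ribosomal protein gene, with its value in undifferentiated cells on the horizontal and in differentiated cells on the vertical axis; the line marks equal values. H3K9Ac promoter regions (left, kb, log axes) lie above the line at 71 of 77 genes, H4K5Ac regions (middle, kb, log axes) below it at 60 of 77, and H3K36me3 cover (right, percent of the gene body) is at least 90% at 71 of 80 genes in each state, and 0% at 3 genes in both; 3 of the other points are named.

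RUNX2 was present at a large minority of member promoters before differentiation and at fewer after it. A RUNX2 peak lay at 32 of 80 promoters (40%, 29.2 to 51.6) in undifferentiated cells, against 15% of all genes. In differentiated cells it lay at 14 (17.5%, 9.91 to 27.6), against 5.61%. Among the other genes with H3K4me3 in both states the shares were 34.7% and 12.7%, and among the 75 members with that mark in both states 41.3% and 18.7%. Most of the gap to all genes was thus also seen at other active promoters. The whole RUNX2 list was shorter in differentiated cells, 6272 against 12674 peaks, and read depth is unknown, so the lower number at members and the shorter list cannot be told apart.

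RUNX2 lay at 12 members in both states, against 4.7% of all genes. These were Rpl3, Rpl10a, Rpl13a, Rpl18, Rpl21, Rpl22, Rpl27, Rpl27a, Rpl37, Rplp0, Rps2 and Rps12. It lay at 20 members in undifferentiated cells only (10.3% of all genes) and at 2, Rpl12 and Rps15a, in differentiated cells only (0.903% of all genes). Among the 7401 other genes with H3K4me3, 805 had RUNX2 in both states, 1764 in undifferentiated cells only and 134 in differentiated cells only. Of the 32 members, 12 (37.5%, 21.1 to 56.3) also had a peak after differentiation, and 31.3% of all genes with a peak before it did. The undifferentiated-only members on the small subunit were Rps3a, Rps10, Rps14, Rps15, Rps16, Rps18, Rps19, Rps20, Rps23, Rps26, Rps27l and Rps28. Those on the large subunit included Rpl10, Rpl19, Rpl23a, Rpl30, Rpl35, Rpl36 and Rplp2. Rps14 and Rps19 are genes whose loss of 1 copy causes human anaemias, and Rpl10 encodes the protein whose late joining readies the large subunit for translation.

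Small subunit genes went from 14 of 32 (43.8%, 26.4 to 62.3) to 3 of 32 (9.38%, 1.98 to 25.0), and large subunit genes from 18 of 48 (37.5%, 23.95 to 52.6) to 11 of 48 (22.9%, 12.0 to 37.3). Of the genes with a peak in undifferentiated cells, 2 of 14 small subunit genes (14.3%, 1.78 to 42.8) and 10 of 18 large subunit genes (55.6%, 30.8 to 78.5) also had one in differentiated cells. These intervals overlap, the split was chosen with earlier results known, and the difference between the subunits was not tested.

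Most peaks lay close to an annotated start site. In undifferentiated cells 38 RUNX2 peaks lay at the 32 promoters, with 2 peaks each at 6 members, among them Rpl3, Rpl13a, Rpl18, Rpl27 and Rps2. The median distance from peak centre to the nearest TSS was 68 bp, and 36 of 38 (94.7%) were within 250 bp. For peaks at the other genes with H3K4me3 the median was 109 bp and 1902 of 2535 were within 250 bp. Members have a median of 4 annotated TSSs, and these other genes 3, and the part of this in the distances was not tested. In differentiated cells there were 14 peaks at a median of 50 bp, 13 of them within 250 bp. At the other genes with H3K4me3 the median was then 98 bp, and 618 of 879 were within 250 bp. The exceptions at members were an undifferentiated peak 1066 bp from Rps10, 1 of the 2 at Rps2, 892 bp from a TSS, and a differentiated peak 353 bp from a TSS of Rpl13a. Counted from the most 5-prime TSS alone, 30 of 38 undifferentiated and 11 of 14 differentiated peaks were within 250 bp. Of the 38, 19 peak centres lay outside the gene, 12 in exons and 7 in introns.

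Peaks of the 2 states overlapped at the members that had both. Of the 38 undifferentiated peaks 12 overlapped a differentiated one, and 12 of the 14 differentiated peaks overlapped an undifferentiated one. The same overlap over all RUNX2 peaks is not given here. By gene, 37.5% of the members with a peak before differentiation also had one after it, near the 31.3% of all such genes. The peak centres of the 2 states differed by a median of 27 bp over the 12 members. At Rpl21 they lay 39 and 36 bp before the TSS, at Rplp0 54 and 41 bp before it, and at Rpl10a, which encodes a protein beside the tRNA exit site, 17 and 3 bp after it. At Rps12 they lay 124 and 194 bp before the TSS. Rpl13a had the widest shift, 180 bp, at an internal TSS, with the undifferentiated centre 7496 bp into the annotated gene. Some peaks can belong to a neighbour: 5 of 38 undifferentiated peaks were also within 1 kb of a TSS of Flt3l, Sphk2, Vps52 or Ndufa7, and 2 of 14 differentiated ones of Lrsam1 or Sphk2.

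**Figure D3:**
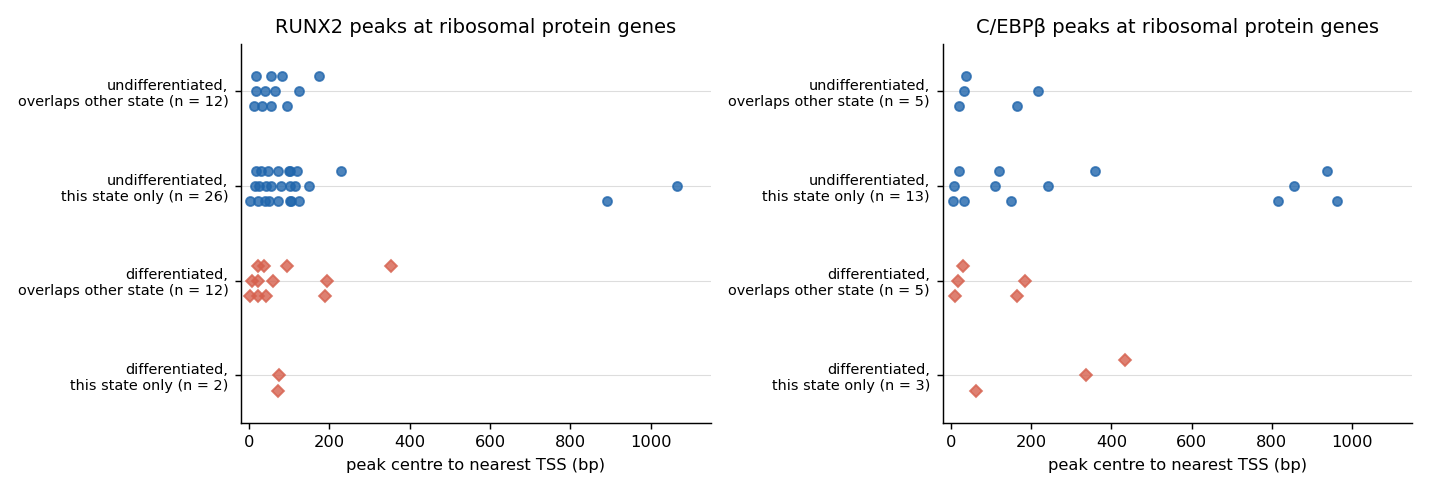
Distance from peak centre to the nearest annotated TSS (horizontal axis, bp) for each RUNX2 (left) and C/EBPβ (right) peak at a ribosomal protein gene promoter, 1 point per peak, in rows by state and by whether a peak of the same factor in the other state overlaps it; vertical scatter within a row only separates the points. Of the undifferentiated RUNX2 peaks 12 overlap a differentiated one and 26 do not, and 36 of 38 lie within 250 bp.

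The RUNX core letters were not a general feature of these peaks. TGTGGT or TGCGGT, on either strand, occurred in 12 of 38 undifferentiated RUNX2 peaks at members (31.6%, 17.5 to 48.7), in 43.5% of 3296 RUNX2 peaks at other promoters and in 68.2% of 9340 RUNX2 peaks elsewhere. In differentiated cells the figures were 7 of 14 (50%, 23.0 to 77.0), 59.7% and 73.8%. Of the 12 undifferentiated peaks that overlapped a differentiated one, 5 held the letters (Rpl18, Rpl21, Rpl22, Rps2 and Rps12), and of the other 26, 7 did (among them Rpl23a, Rpl30, Rps2, Rps3a, Rps10 and Rps28). As shown above, Rplp0 had a peak in both states without them. In the 250 bp before to 50 bp after the TSS, 18 of 80 members (22.5%) held the letters, as did 21.5% of all genes. A RUNX2 peak lay in undifferentiated cells at 11 of these 18 members and at 21 of the 62 without them. Neither this split nor that of the peaks by overlap was tested, and neither is given for other genes here. A letter match is a description and not a binding site.

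The ETS motif CCGGAAG was found in 9 of the 38 peaks (23.7%, 11.4 to 40.2), in 14.1% of RUNX2 peaks at other promoters and in 1.21% of those elsewhere, on either strand. It lay in 24 of 80 member promoters (30%, 20.3 to 41.3), against 10.9% of all promoters and 22.2% of those of the other genes with H3K4me3. The SP1 motif GGGCGG lay in 47.5%, 44.0% and 67.7%, and TATAAA in 11.3%, 13.4% and 5.82% of the same sets. The YY1 letters AAGATGGCG lay in 4 member promoters (5%), against 1.84% and 4.13%. The pyrimidine core CTTTC, searched on the sense strand within 20 bp of the annotated TSS, was found at 11 members (13.8%, 7.07 to 23.3), 5.09% of all genes and 3.89% of the other genes with H3K4me3. The annotated TSS is a single base, and starts that lie further from it were not seen by this search.

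C/EBPβ lay at fewer members than RUNX2. It was found at 18 of 80 promoters (22.5%, 13.9 to 33.2) in undifferentiated cells, against 10.7% of all genes, and at 8 (10%, 4.42 to 18.8) in differentiated cells, against 6.54%. The other genes with H3K4me3 had 21.9% and 13.2%, so the members were near other active promoters in both states. The members with C/EBPβ in both states were 5, among them Rpl9, Rpl18, Rplp2 and Rps27a, against 5.28% of all genes. Rps27a makes a fusion of ubiquitin and a small subunit protein. A further 13 had it in undifferentiated cells only, against 5.39% of all genes, among them Rpl3, Rpl7, Rpl10, Rpl10a, Rpl13a, Rpl23, Rpl24, Rpl27, Rpl38, Rps13, Rps23 and Rps24. Rpl38 is needed for the patterning of the axial skeleton in the mouse, and its peak centre was 34 bp before the TSS. Rpl15, Rpl30 and Rpl32 had C/EBPβ in differentiated cells only, against 1.26% of all genes. Among the 7401 other genes with H3K4me3, 809 had C/EBPβ in both states, 812 in undifferentiated cells only and 171 in differentiated cells only.

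Of the 18 members with C/EBPβ before differentiation 5 had it after (27.8%, 9.69 to 53.5), and of all genes 49.5%. The C/EBPβ list was also shorter in differentiated cells, with 10847 against 15622 peaks. Peak centres at members were at a median of 135 bp from the nearest TSS in undifferentiated and 114 bp in differentiated cells, against 208 and 213 bp at the other genes. At Rplp2, an acidic stalk protein gene, the peaks of the 2 states lay 166 and 165 bp before the TSS. The C/EBP letters TTGCGCAA or TTGCACAA occurred in 1 of the 18 undifferentiated peaks, at Rpl10a, in none of the 8 differentiated ones, and in 12.1% and 13.5% of C/EBPβ peaks at other promoters. Of the 18 and 8 peaks, 4 each were also within 1 kb of the TSS of another gene.

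Both factors were at 9 member promoters in undifferentiated cells, against 4.66% of all genes, and at 1, Rpl18, in differentiated cells, against 1.17%. Of the 7401 other genes with H3K4me3, 802 and 181 had both. Of the 38 undifferentiated RUNX2 peaks 4 overlapped a C/EBPβ peak, at Rpl3, Rpl10, Rpl18 and Rpl27. The share of RUNX2 peaks at other genes that overlap a C/EBPβ peak is not given here. At Rpl18 the shared site was at an internal TSS, 64 bp from it for RUNX2 and 39 bp for C/EBPβ in undifferentiated and 59 and 30 bp in differentiated cells, and it was also within 1 kb of a TSS of Sphk2, a sphingosine kinase gene on the opposite strand. Neither factor was at 39 members in undifferentiated and 59 in differentiated cells, at 17663 and 19912 of all 22367 genes, and at 4013 and 5663 of the 7401 other genes with H3K4me3. Rps6, Rps3, Rpl5, Rpl11, Rplp1 and Rpsa had neither factor in either state, although all of them carried the 4 promoter marks in both.

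Other genes of the ribosome and of translation gave a range of RUNX2 shares in which the members sat in the middle. Translation initiation and elongation factors, which work on the ribosome, had RUNX2 at 26 of 37 promoters (70.3%, 53.0 to 84.1) in undifferentiated cells and at 7 (18.9%) in differentiated cells. Ribosome biogenesis genes, which process and assemble ribosomal RNA, had 16 and 7 of 39 (41.0% and 17.9%). Mitochondrial ribosomal protein genes had 24 and 10 of 76 (31.6% and 13.2%), and oxidative phosphorylation subunit genes 21 and 8 of 86 (24.4% and 9.30%). Of 6 cytosolic ribosome genes outside the symbol rule, among them Fau, which encodes a ribosomal protein fused to a ubiquitin-like protein, 3 had RUNX2 in undifferentiated and 0 in differentiated cells. Of 17 regulators of ribosome genes, such as Myc and Mtor, 7 and 2 had it. In each of these lists fewer promoters had a peak in differentiated cells, as in the list as a whole. The interval of the translation factors in undifferentiated cells lies above that of the members, but the lists were drawn up with earlier results known and the difference was not tested.

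C/EBPβ was at 11 mitochondrial ribosomal protein genes in each state (14.5%), at 12 and then 7 translation factor genes (32.4% and 18.9%), and at 6 and then 5 ribosome biogenesis genes (15.4% and 12.8%). The mitochondrial set, with a median length of 7733.5 bp, had median H3K36me3 cover of 88.5% and 87.4%. At 44.7% and 42.1% of its genes 90% cover was reached, below the 88.8% of the cytosolic set in both states. Translation factor genes, with a median length of 17425 bp, had medians of 97.7% and 97.3%. They reached 90% cover at 81.1% and 83.8% of genes, and ribosome biogenesis genes at 76.9% and 79.5%, nearer the members.

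**Figure D4:**
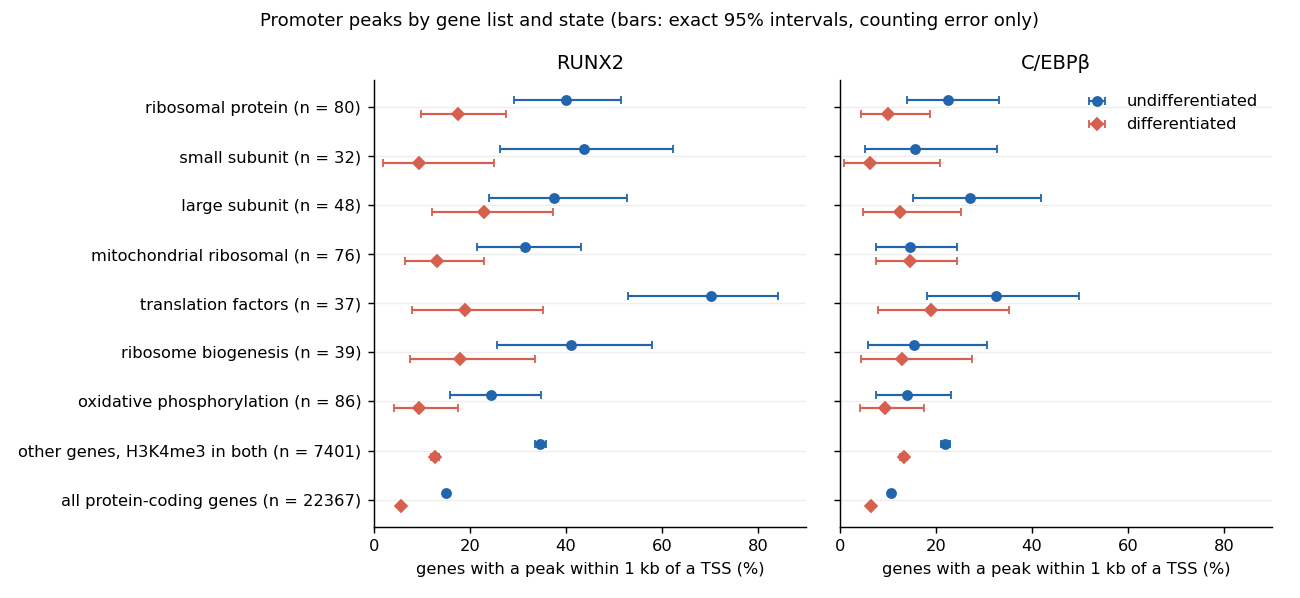
Share of genes with a RUNX2 (left) or C/EBPβ (right) peak within 1 kb of a TSS (horizontal axis, percent) for the ribosomal protein genes, their subunits and other gene lists, blue circles undifferentiated and red diamonds differentiated, with exact 95% intervals for counting error. RUNX2 points are lower in differentiated cells in every list drawn, from 40% to 17.5% at the 80 ribosomal protein genes and from 70.3% to 18.9% at the 37 translation factors.

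A feature of gene structure that the rule did not use was frequent in the members but not general. Small nucleolar RNA genes, whose products guide the modification of ribosomal RNA, lay on the same strand inside 30 of 80 members (37.5%), 58 of them in all, against 269 of all 22367 genes and 2.13% of the other genes with H3K4me3. They also lay inside 9 of 37 translation factor genes (24.3%) and 7 of 39 ribosome biogenesis genes (17.9%), and 50 members held none. Rpl4 held 5, and Rpl7a and Rpl13a held 4 each. RUNX2 in undifferentiated cells lay at 15 of these 30 hosts and at 17 of the 50 other members, and this split was not tested.

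The genome holds many processed copies of these genes, so it matters where reads can be placed. At the members' promoters a median of 92.4% of 32-base stretches occur once in the genome, from 68.8% at Rpl37a to 100%, and in the bodies a median of 84.8%, from 54.6% at Rpl10l to 96.7%. Members with RUNX2 in undifferentiated cells had a promoter median of 93.4%, and members without it 92.1%. The 99 annotated pseudogenes named after a member had H3K4me3 at 1 and 2, H3K9Ac at 4 and 5, RUNX2 at 1 and 0 and C/EBPβ at 1 and 0 in undifferentiated and differentiated cells. The broader marks were at more of them, with H4K5Ac at 22 and 12, H3K4me1 at 22 and 18 and H3K36me3 at 13 and 10.

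Marker genes of the cell line were checked in the same lists. Of 9 osteoblast markers 5 had H3K4me3 in each state, Runx2, Col1a1, Col1a2 and Sparc in both, with Sp7 in undifferentiated and Spp1 in differentiated cells. H3K4me3 and H3K9Ac were at 0 of 5 markers each of adipocytes, muscle, blood and endothelium, and of 5 chondrocyte markers H3K9Ac was at 2 and H3K4me3 at 0. Rpl3l, the muscle paralog, likewise had neither.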

How the data were processed

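The deposited files were 14 peak lists, 1 per antibody and state, holding merged peaks of biological replicates per the labels. Alignment to mm9 used Bowtie and peak calling used HOMER, per the submitters' processing notes, and their versions are not given in the sources used. The score the authors deposited was 0 at all peaks of the 2 factors and positive for the marks, and its scale is not stated. A peak list carries no read counts, so depth is unknown. Lists were joined to GENCODE vM1 genes on NCBIM37 (chromosomes 1 to 19, X and Y) with Python 3.11.15 and numpy 2.4.6, and exact intervals came from scipy 1.17.1. A promoter was within 1000 bp of any TSS, 1 bp of overlap sufficed, and a change in H3K36me3 cover counted from 20 points. The overlap step was tested on simulated data, where 200 of 200 planted promoters were found.

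The members, lists, motifs and comparison sets were chosen with earlier results of these data known. The genes of like length, the oxidative phosphorylation set and the motif counts inside peaks were added after values were seen. Some genes are counted in the totals but not reported by name. With those exceptions, the named genes were members with a factor peak at the promoter, those without a mark or with a changed one, the 5 lowest and 5 highest in H3K36me3 cover, the 5 largest changes each way, the paralogs, and 13 well-known members. Members named for width, rank or snoRNAs were chosen after their values were seen. Of 40 biogenesis genes 39 were matched by symbol.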

Additional observations from a re-analysis of the deposited data

How the results depend on the processing

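The 22 shares reported for the members were recomputed under alternative settings, which gave 198 values, and 182 stayed within the counting interval of the reported value. Without the 4 paralogs the share was 100% for H3K9Ac and H4K5Ac in both states and for H3K4me3 and H3K4me1 in differentiated cells. With only the regions above the middle score of each list it was 82.5% for H3K4me3 in undifferentiated cells and 77.5% and 88.75% for H3K4me1 in undifferentiated and differentiated cells. With peaks within 20000 bp of a TSS, RUNX2 was at 56.25% and 31.25% of members (32.4% and 16.0% of all genes) and C/EBPβ at 50% and 30% (30.9% and 23.2%). Without the first 1000 bp, 95.7% of bodies had 90% H3K36me3 cover in undifferentiated cells. The share with cover higher by 20 points was 0 among the 28 members with bodies of at least 90% unique 32-mers, and 0 at a change of 40 points, since Rpl11 alone made up the reported share. Score settings could not be run for RUNX2 and C/EBPβ, whose scores were all 0. No paired analysis was possible because each antibody and state has 1 merged list and the values come from no test. Read depth is unknown, so the absence of a peak is not evidence of absent binding, and list length and state cannot be told apart.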
